A study of Danio rerio with 4 samples.

Results

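Mitochondrial DNA encodes 6 proteins of the cytochrome complexes and of the ATP synthase: co1, co2 and co3 of cytochrome c oxidase (complex IV), cytb of the cytochrome bc1 complex (complex III), and atp6 and atp8 of the ATP synthase (complex V). Ribosome footprints on these 6 genes were examined in wild-type zebrafish embryos of the AB strain at 4 hours postfertilization (hpf). The material was whole embryos, all of them injected at the 1-cell stage with a mixture of mRNAs for sfGFP reporters. The 2 disome libraries hold stretches of mRNA covered by stacked ribosomes, and the 2 monosome libraries hold stretches covered by a lone ribosome. The genes were taken from a run of 37 consecutive rows of the deposited tables that starts at ENSDART00000116162.3 and holds 13 rows with a coding length. They are 6 of the 46061 transcripts with a coding length, and the other 7 coding rows of the run are the nd genes of complex I. The names follow from the order of the rows. As a check, the coding length of each of the 13 rows was compared with the RefSeq annotation of the zebrafish mitochondrial chromosome (MT, assembly GRCz12tu), and all 13 lengths matched in the same order. Each of these lengths occurs only once among the mitochondrial coding genes.

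Mitochondrial mRNAs are translated inside the organelle, by mitochondrial ribosomes that are separate from those of the cytosol. The proteins made there are hydrophobic subunits of the inner membrane complexes, which move electrons to oxygen and use the resulting proton gradient to make ATP. In complex IV, co1 carries the catalytic centre where oxygen is reduced, co2 accepts the electrons from cytochrome c, and co3 completes the core of the enzyme. In complex III, cytb binds the quinones and carries the heme groups that move electrons across the membrane. In complex V, atp6 forms part of the proton channel, and atp8 is a small membrane subunit beside it. The embryo inherits its mitochondria from the egg.

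Disome replicates 1 and 2 held 473057 and 364830 counts in total, and monosome replicates 1 and 2 held 2749837 and 3814224. Differences between replicates over all transcripts were larger than the sampling noise, with chi-square values of 1.28 (disome) and 1.82 (monosome) for each degree of freedom. The methods describe the disome libraries as made alongside monosome libraries, and whether those are the monosome libraries analysed here was not determined. The labels do not say whether the replicates came from separate clutches, so the spread between these libraries may be technical. The p-values below rest on that spread, estimated with information shared across transcripts rather than from each gene alone. The mitochondrial tRNAs and rRNAs give no values here, since the 24 rows of the run without a coding length are listed at 0. Markers of the embryonic stage were not analysed, because the tables list transcript identifiers without gene names. Intervals are 95% intervals and, like the limit of 3 counts set for a count of 0, cover the counting error only.

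The level of the 6 genes in each library was examined first. On co1 (ENSDART00000093606.3, 517 codons including any stop codon) there were 22 disome footprints in replicate 1 and 51 in replicate 2, against 6156 and 7188 monosome footprints. As a share of the library, these were 46.5 and 139.8 disome counts per 1000000 (CPM), against 2239 and 1885 monosome CPM. The disome and monosome libraries did not overlap, and 99.96% and 99.94% of the transcripts with any monosome footprint had fewer of them than co1 in monosome replicates 1 and 2.

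The other complex IV genes had the same pattern at lower levels. On co2 (ENSDART00000093609.3, 230 codons) 6 and 9 footprints were counted in the disome libraries, against 1699 and 1921 in the monosome libraries. On co3 (ENSDART00000093613.3, 262 codons) the disome libraries held 7 and 12 footprints, against 2151 and 2392 in the monosome libraries. In CPM, both disome libraries were below both monosome libraries for co2, at 12.7 and 24.7 against 618 and 504. The values of co3 were 14.8 and 32.9 against 782 and 627. Such an order held for 46.5% of the 16910 transcripts with at least 20 footprints over the 4 libraries. For complex III, 9 and 12 disome footprints were on cytb (ENSDART00000093625.3, 380 codons), against 2066 and 2337 from monosomes. Its monosome level of 682 ± 98.0 CPM (SD, n = 2 libraries) was close to that of co3, at 705 ± 110 CPM. Its disome level was 26.0 ± 9.81 CPM, and that of co3 was 23.8 ± 12.8 CPM.

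The ATP synthase genes had the fewest footprints of the 6. On atp6 (ENSDART00000093612.3, 228 codons) the disome libraries held 1 and 0 footprints, against 533 and 535 in the monosome libraries. On atp8 (ENSDART00000093611.3, 55 codons) both disome libraries were at 0, against 154 and 156 footprints in the monosome libraries. A count of 0 allows up to 3 counts, which corresponds to 6.34 CPM in disome replicate 1 and 8.22 CPM in disome replicate 2. The monosome level of atp8 was 48.5 ± 10.7 CPM (SD, n = 2 libraries). The reading frames of atp8 and atp6 overlap, as do those of atp6 and co3, and footprints in the shared bases could be counted on either gene or on both. Positions along the ORF were not used here, so these footprints could not be set apart.

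**Figure D1:**
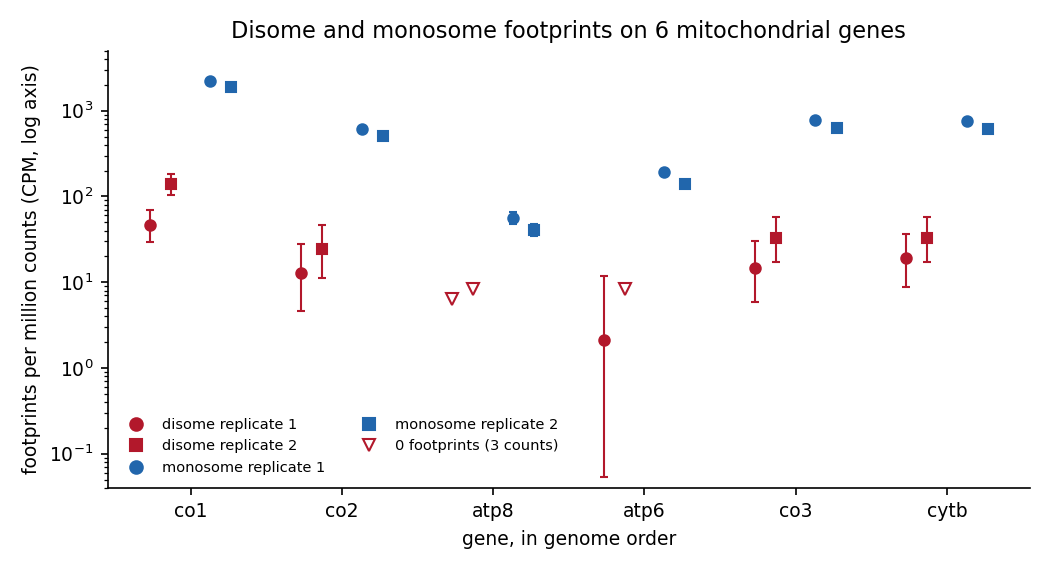
Footprints per 1000000 counts (CPM, log axis) on each of the 6 genes, with disome libraries in red and monosome libraries in blue, circles for replicate 1 and squares for replicate 2. Bars are 95% Poisson intervals, and open triangles mark the limit of 3 counts in libraries with 0 footprints (6.34 and 8.22 CPM). On every gene both disome libraries lie below both monosome libraries, as for co1 at 46.5 and 139.8 CPM against 2239 and 1885 CPM. The same holds for 46.5% of the 16910 transcripts with at least 20 footprints over the 4 libraries.

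Together, the 6 genes took 0.00951% and 0.0230% of the disome libraries, against 0.464% and 0.381% of the monosome libraries. The means were 0.0163% ± 0.00955 and 0.422% ± 0.0587 (SD, n = 2 libraries each). The totals sum the counts of all transcripts, and with identical counts kept once in them the means were 0.0180% and 0.469%. If the 6 genes had taken the same share of the disome as of the monosome libraries, 2195 disome footprints would have been counted in replicate 1 and 1390 in replicate 2, whereas 45 and 84 were counted. In whole embryos, fewer cells of a type, less mRNA per cell and fewer ribosomes per mRNA cannot be told apart from levels of footprints. The ratio of disome to monosome footprints on the same gene sets the counted footprints of stacked ribosomes against those of single ribosomes on it. How well footprints of mitochondrial ribosomes were recovered in each kind of library was not tested.

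To test this ratio, all 16910 transcripts with at least 20 footprints over the 4 libraries entered a quasi-likelihood fit in edgeR with TMM factors, with Benjamini-Hochberg adjustment over all of them and an FDR of 0.01. TMM rescales the libraries on the assumption that most transcripts do not differ. All 6 genes passed the minimum count, but with 15 disome footprints over both libraries on co2, 19 on co3, 1 on atp6 and 0 on atp8, these 4 did so through the monosome libraries, where they are high. On disome footprints alone, co1 with 73 and cytb with 21 would have passed. All 6 fell in the disome libraries, beside 9.72% of all transcripts tested, and for the 4 genes with few disome footprints this count is a description. On all 6 genes, both disome libraries were below both monosome libraries in CPM, which held for 46.5% of all transcripts tested. The median of the log2 disome-to-monosome ratio was -4.73 over the 6 genes and -0.13 over all transcripts tested. The scaling sets where 0 lies. When only library totals were used, the median of all transcripts lay at -0.35, a shift of 0.22.

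The log2 ratio of co1 was -4.33 ± 0.13 (SE), with an adjusted p of 1.68e-221 from edgeR and of 6.84e-08 from DESeq2. With another filter (filterByExpr), the adjusted p of co1 from edgeR was 9.60e-36. The SE of co1 understates how far its disome libraries differ, and its edgeR p rests on the same fit. The level of co1 was 48.1-fold lower in replicate 1 and 13.5-fold lower in replicate 2. For co2 the log2 ratio was -4.73 ± 0.22, and for co3 it was -4.72 ± 0.21. Both are descriptions, since these genes passed the minimum count through the monosome libraries. The ratio of cytb was -4.53 ± 0.20, with an adjusted p of 8.00e-108 from edgeR. The SEs of co2, co3 and cytb were likewise small beside the difference between replicates, and the edgeR p of cytb rests on the same fit. In replicates 1 and 2 the level was 48.7-fold and 20.4-fold lower for co2 and 52.9-fold and 19.1-fold lower for co3. For cytb it was 39.5-fold and 18.6-fold lower. Libraries of the same number were set side by side for these values, without being taken as pairs. The disome share in replicate 2 over that in replicate 1 had an interval that included 1 for each of co2, co3 and cytb. These intervals were 0.618 to 6.64, 0.807 to 6.66 and 0.669 to 4.65. Relative to the median of all transcripts, the log2 ratios of these 4 genes of complexes III and IV lay between -4.61 (co2) and -4.20 (co1), so that they differed far less from each other than from the median transcript. When each library was left out in turn, the ratio ranged from -5.21 to -3.68 for co1, from -5.20 to -4.30 for co2, from -5.31 to -4.21 for co3 and from -4.90 to -4.17 for cytb. The lowest value was without disome replicate 2 and the highest without disome replicate 1 for each of the 4 genes. Such a fit leaves a single library on one side, which is assumed to vary like the other kind, so that it shows how far the ratio moves and gives no separate check of the call.

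For the ATP synthase genes, a fitted ratio has little meaning, because it depends on the prior count at so few disome footprints. Over both libraries of each kind, the 1 disome footprint on atp6 corresponds to a level 136-fold lower than the monosome level, with a counting interval from 24.4 to 5390. On atp8, which had 0 disome footprints, the level was at least 10.7-fold lower by the same kind of counting interval. It was at least 13.2-fold lower when 3 counts over both libraries are taken as the limit. The fitted log2 ratio of atp6 was -6.82 with all libraries, -11.57 without disome replicate 1, which leaves 0 disome footprints, and -6.00 without disome replicate 2.

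Transcripts with as low a ratio were rare among those with disome footprints. Of the 483 transcripts with a ratio below that of co1, 477, among them atp8, had 0 disome footprints. Of the 14652 transcripts tested that had footprints in both disome libraries, 1 outside the mitochondrial run had a ratio below that of co1. A transcript with few footprints cannot reach such a ratio once a disome footprint is counted on it, so the count was repeated at higher depth. Of 1584 transcripts outside the run with at least 1000 footprints in total, a minimum chosen after the values were seen, 1 had a ratio below that of co1, or 0.0631%.

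That transcript, ENSDART00000181917.1 with 137 codons, was also the one whose levels over the 4 libraries were most like the mean of the 6 genes. Its counts were 3 and 3 in the disome libraries, against 915 and 1458 in the monosome libraries, and its log2 ratio was -5.41. Its Euclidean distance from the mean of the 6 genes was 0.541 on the scale of log2(CPM + 0.5) over the 4 libraries. The next was ENSDART00000077418.6 with 331 codons, at a distance of 2.22, with counts of 6 and 7 from disomes, against 461 and 607 from monosomes. The 6 genes themselves were 1.66 to 7.30 from their own mean, so these distances are within their spread. The tables and references used here do not pair either transcript with a gene.

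**Figure D2:**
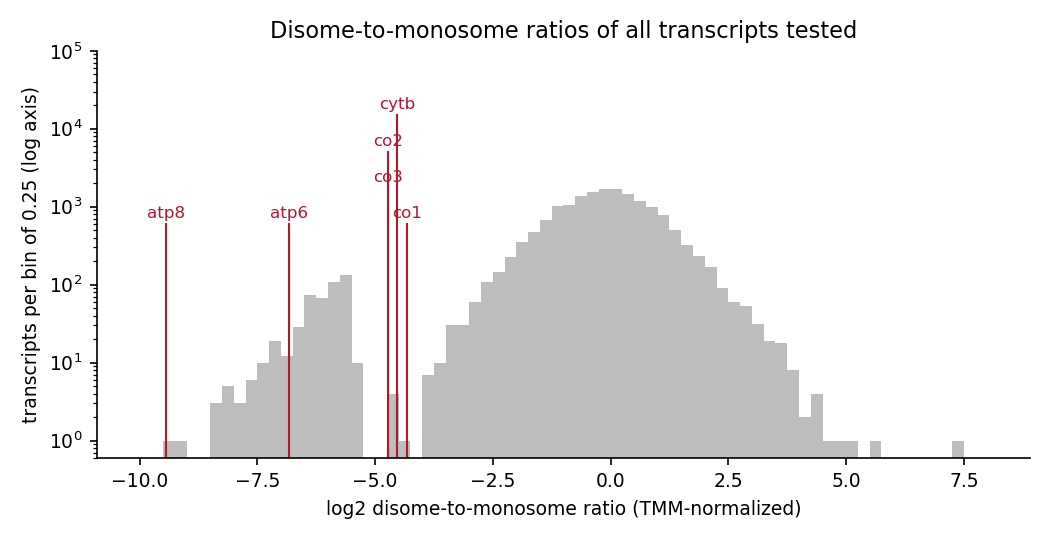
Number of transcripts (log axis) by log2 disome-to-monosome ratio from edgeR in bins of 0.25, over the 16910 transcripts tested. Red lines mark the 6 genes, with co1 at -4.33, cytb at -4.53, co3 at -4.72 and co2 at -4.73. These 4 stand in a sparse stretch between the main distribution, whose median is -0.13, and the transcripts with 0 disome footprints, whose ratios depend on the prior count and lie at -5.49 or below.

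The genes were then compared with each other per codon, within each library, in footprints per 1000 codons per 1000000 counts. In the monosome libraries the density was highest on co1, at 4330 in replicate 1 and 3645 in replicate 2. It was followed by co3 at 2986 and 2394, and by co2 at 2686 and 2190. Thus, although co1, co2 and co3 are present in equal numbers in complex IV, their monosome footprints per codon were unequal, in the order co1, co3, co2. The amounts of their mRNAs were not examined, so these are not densities per mRNA. Next came cytb at 1977 and 1612. The ATP synthase genes were lowest, with atp8 at 1018 and 744 and atp6 at 850 and 615. The order was the same in both monosome libraries, and replicate 1 was higher than replicate 2 on all 6 genes.

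Of the 15 pairs of genes, 14 differed in monosome density in both libraries by more than the counting error. Within complex IV, the density on co2 was 0.900 times that on co3 in replicate 1 (interval 0.844 to 0.959) and 0.915 times in replicate 2 (0.861 to 0.972), the closest of the 14 pairs. The density on co3 was 1.51 times that on cytb in replicate 1 and 1.48 times in replicate 2. The pair that was not apart was atp8 and atp6, whose mRNA is shared in vertebrates. The density on atp8 was 1.20 times that on atp6 in replicate 1 (0.995 to 1.44) and 1.21 times in replicate 2 (1.00 to 1.45). This pair was also apart without monosome replicate 1, and when the stop codon was left out of the lengths. The intervals are for a single pair and were not widened for the number of pairs.

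**Figure D3:**
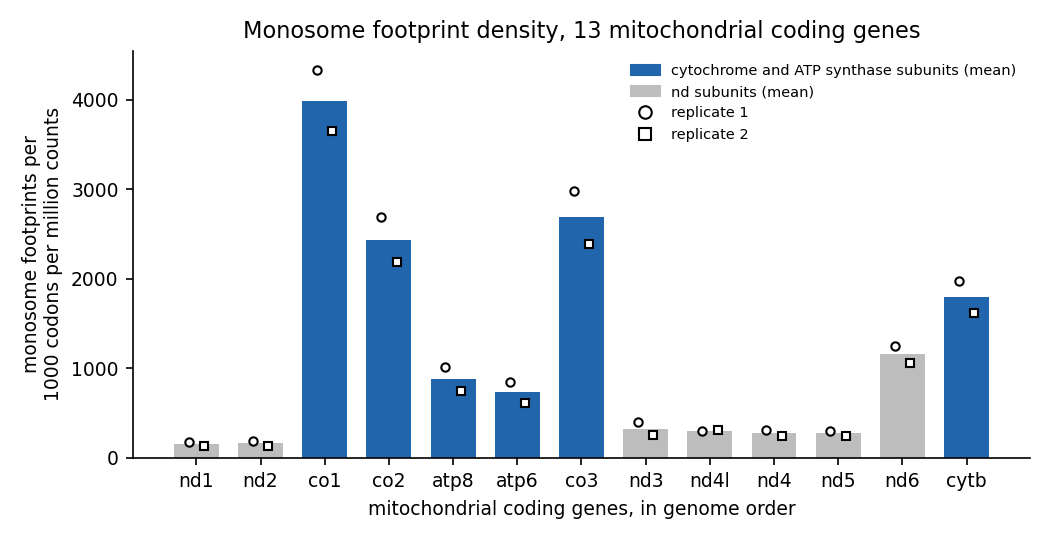
Monosome footprints per 1000 codons per 1000000 counts on the 13 mitochondrial coding genes in genome order. Bars are means of the 2 libraries, circles and squares are replicates 1 and 2, blue bars are the 6 cytochrome and ATP synthase genes and grey bars are the nd genes. Density is highest on co1 (4330 and 3645) and lowest among the 6 on atp6 (850 and 615), and nd6 is the one grey bar above atp8 and atp6.

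As a share of the monosome footprints on the 6 genes, co1 took 48.2% in replicate 1 (interval 47.4 to 49.1) and 49.5% in replicate 2 (48.7 to 50.3), although it makes up 30.9% of their codons. By contrast, atp6 makes up 13.6% of the codons and took 4.18% and 3.68% of the monosome footprints. The shares of co2 were 13.3% and 13.2%, close to its 13.8% of the codons. The shares of co3 were 16.9% and 16.5%, beside 15.7% of the codons, whereas cytb took 16.2% and 16.1% with 22.7% of the codons. Among the 6 genes, co1 thus had a larger share of monosome footprints than of codons, and cytb, atp6 and atp8 a smaller one. These shares are parts of 1 total, so the large share of co1 lowers the others. Of the monosome footprints on all 13 mitochondrial genes, cytb took 14.0% and 13.9%, with 380 of 3802 codons. Its smaller share therefore holds among the 6 genes only.

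In the disome libraries, the interval of each gene's share of the footprints on the 6 genes included its share in the monosome library of the same number, barely so for co1 in replicate 2. Of the 45 disome footprints on the 6 genes in replicate 1, co1 took 48.9% (interval 33.7 to 64.2), and of the 84 in replicate 2 it took 60.7% (49.5 to 71.2). Disome density per 1000 codons per 1000000 counts was 90.0 and 270.4 on co1, 56.5 and 125.5 on co3, 55.1 and 107.3 on co2 and 50.1 and 86.6 on cytb. The order of these 4 genes by disome density was the same in both disome libraries and the same as by monosome density. However, most of the steps in this order were within the counting error, and co1 and atp6 were the only one of the 15 pairs that was apart in both disome libraries. In disome replicate 2 on its own, 8 pairs were apart, and in disome replicate 1 on its own, 1 was.

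To ask whether disomes were more frequent on any gene of the 6 relative to its single ribosomes, the odds of disome to monosome footprints were compared between all 15 pairs. On co1 there were 3.57 and 7.10 disome footprints per 1000 monosome footprints in replicates 1 and 2. The values were 3.53 and 4.69 on co2, 3.25 and 5.02 on co3 and 4.36 and 5.13 on cytb. On atp6 they were 1.88 and 0, and on atp8 they were 0 and 0. None of the 15 pairs had an odds ratio whose interval left out 1 in either replicate, and for atp8 and atp6 in replicate 2, both at 0 disome footprints, no ratio could be computed.

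The intervals of these odds ratios were wide, so that differences of moderate size were not detectable at this depth. The odds on co1 were 0.820 times those on cytb in replicate 1 (interval 0.362 to 2.03) and 1.38 times in replicate 2 (0.725 to 2.85). Those on co1 were 1.01 times those on co2 in replicate 1 (0.397 to 3.06) and 1.51 times in replicate 2 (0.737 to 3.51). For co1 against atp6, replicate 2 gave a lower bound of 0.989 and no upper bound, since atp6 had 0 disome footprints there. Each replicate number holds a single library of each kind, so these intervals compare libraries and no p-value is given. Over 2 libraries against 2, an exact permutation test could not give a p below 0.33.

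As a group, the 6 genes were also compared with the 7 nd genes, which encode the mitochondrial subunits of complex I and are translated by the same ribosomes. The 6 genes held 45 and 84 footprints in the disome libraries, against 12759 and 14529 in the monosome libraries. The nd genes held 28 and 37 from disomes, against 2038 and 2277 from monosomes. Per 1000 monosome footprints, there were 3.53 and 5.78 disome footprints on the 6 genes and 13.7 and 16.2 on the nd genes. Relative to single ribosomes, disomes were thus less frequent on the 6 genes pooled than on the nd genes pooled. Given as pooled nd genes over the 6 genes pooled, the odds ratio was 3.89 in replicate 1 (interval 2.33 to 6.40) and 2.81 in replicate 2 (1.85 to 4.20). Over both libraries of each kind, single nd genes ranged from 4.13 per 1000 (nd3, interval 0.104 to 23.2) to 28.2 (nd4, 17.7 to 42.5). Of the 65 disome footprints on the nd genes, 23 were on nd4. The intervals of nd4 and nd5 lay above that of co1, at 5.47 (4.29 to 6.88), and those of the other nd genes overlapped it.

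The difference from the nd genes was also present for single genes. Set against co2, co3 or cytb singly, the odds on the nd genes were 3.15 to 4.22 times as high in replicate 1 and 3.16 to 3.47 times as high in replicate 2, and every one of these intervals was above 1. Against co1 the odds on the pooled nd genes were 3.84 and 2.29 times as high, with both intervals above 1. Against atp6 the odds ratio was 7.32 in replicate 1 (1.20 to 300.0), with a lower bound of 2.23 in replicate 2. Against atp8, which had 0 disome footprints, the intervals started at 0.530 and 0.646 and did not leave out 1. All 7 nd genes also fell in the disome libraries with edgeR at the FDR of 0.01, beside 9.72% of all transcripts tested, although of these nd4 alone, with 23, had at least 20 disome footprints. Their log2 ratios ranged from -4.68 (nd3, with 1 and 0 disome footprints) to -1.97 (nd4), with a median of -2.98. The 2 disome libraries were below the 2 monosome libraries in CPM on all 13 mitochondrial genes, beside 46.5% of all transcripts tested.

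**Figure D4:**
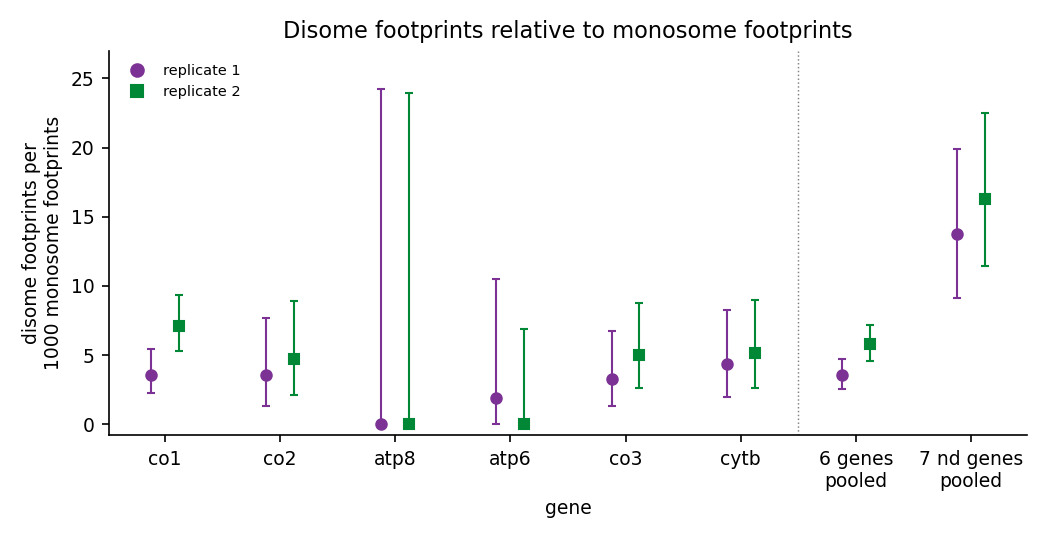
Disome footprints per 1000 monosome footprints on each of the 6 genes, on the 6 together and on the 7 nd genes together, with replicate 1 as circles and replicate 2 as squares. Bars are 95% Clopper-Pearson intervals. The 6 genes together are at 3.53 and 5.78, and the nd genes together at 13.7 and 16.2, whereas the intervals of the 6 single genes overlap each other.

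In monosome density, the 6 genes together had 2775 and 2278 footprints per 1000 codons per 1000000 counts, against 348 and 280 on the nd genes. The ranges overlapped at a single gene. The nd6 gene, at 1253 and 1061, was above both atp8 and atp6 in each library, while the other nd genes were between 132 and 398 and below all of the 6. According to the RefSeq annotation, nd6 overlaps the end of nd5. The counting does not state whether strand was used. The size of this overlap and its bearing on the footprints of nd6 were not tested.

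The replicates differed in opposite directions in the 2 kinds of library. For the 6 genes together, the share of disome replicate 2 was 2.42 times that of disome replicate 1 (interval 1.67 to 3.56), whereas the share of monosome replicate 2 was 0.821 times that of monosome replicate 1 (0.802 to 0.841). For co1 this disome ratio was 3.01 (1.79 to 5.20), above that of 99.7% of the 6516 transcripts with at least 20 disome footprints and any in replicate 1. For co2, co3 and cytb it was 1.94, 2.22 and 1.73, with intervals that included 1. The ratio of cytb lay above that of 94.5% of these transcripts. With 15 and 19 disome footprints, co2 and co3 were below the minimum for this set, so no rank is given for them. For the nd genes together the disome ratio was 1.71 (1.02 to 2.91). The cause of this difference between the disome libraries was not tested. As a result, the level of the 6 genes was 48.8-fold lower in disome than in monosome replicate 1 (36.4 to 66.9) and 16.5-fold lower in replicate 2 (13.4 to 20.8). The size of the difference thus depended on the disome library by more than the counting error, and its direction did not.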

How the data were processed

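Disome and monosome footprints were measured in 2 libraries each. The authors ran fastp on the reads, and STAR (2.7.0a in the submitters' processing notes) aligned them to the GRCz11 genome, with at most 1 mismatch and reads of a single locus kept. They deposited whole-number counts of footprints on each coding sequence, neither normalized nor pooled, beside its length in codons. The counter, its treatment of strand and overlapping genes, and the fragment lengths kept are not given in the sources used here. The labels name cycloheximide, an inhibitor of cytosolic ribosomes, in the lysis buffer. For another assay, the methods mention chloramphenicol, which inhibits mitochondrial ribosomes, as a further part of the study's lysis buffer.

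Counts were fitted with edgeR 4.0.16 in R 4.3.3 (TMM, quasi-likelihood test, minimum of 20 footprints, FDR of 0.01) over all transcripts. The test was tried on simulated data. Intervals (Clopper-Pearson, Poisson, conditional odds ratio) were computed with SciPy 1.17.1. Alternatives were DESeq2 1.42.0, library totals, identical counts kept once, a block for replicate numbers, other filters, other denominators and lengths, an FDR of 0.05, and leaving out each library. SE of log2 ratios were derived from the F statistic.

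Genes, lists and tests were chosen with earlier results of these data known. The text names all 6 genes and the 2 transcripts with the most similar levels. It gives nd genes as counts and ranges, where one neighbours a member or where single nd genes differ from the pool. Nuclear-encoded partners and stage markers were not analysed, since identifiers could not be paired with genes, and no sequences were used. Depth was 473057 and 364830 disome and 2749837 and 3814224 monosome counts, so that single-gene disome values rest on few reads.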

Additional observations from a re-analysis of the deposited data

How the results depend on the processing

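All 6 genes fell in the disome libraries under each of 10 alternatives (DESeq2, library totals, no minimum count, filterByExpr, the replicate block, identical counts kept once, and each library left out). Over all transcripts, 1643 of 16910 were called lower in the main fit, 685 of 16910 with DESeq2 and 2519 of 16910 with library totals. The number was 2060 of 28539 with no minimum count and 1581 of 13732 with filterByExpr. It was 1553 of 16910 with the replicate block and 1521 of 13939 with identical counts kept once. For co1 and cytb, the 2 genes with at least 20 disome footprints, the highest adjusted p-values were 6.84e-08 (DESeq2) and 1.65e-29 (edgeR with filterByExpr). The other 4 passed the minimum through the monosome libraries, so their calls say little about stability. Fits without a library leave a single library on one side and give no separate check of a call. The number of transcripts that differ, 3637 of 16910, was 2148 with DESeq2 and from 2120 (without disome replicate 1) to 2884 with each library left out. Of the calls, 54.8% were higher in disome libraries with TMM, 38.3% with library totals, 43.7% without a minimum count, 68.1% with DESeq2 and 59.0% to 62.9% with a library left out. With the replicate block, 3448 transcripts were called. Deviations from the group means were unrelated between libraries that share a number (r = 0.0015 over 7593 transcripts), so the numbers were not taken to pair the libraries, and the block changed no call on the 6 genes.

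Of the 15 pairs of genes, 1 was apart in disome footprints per codon, and from 1 to 8 (without disome replicate 1) with a library left out. With atp8 and atp6 summed, 1 of 10 pairs was apart in disome and 10 of 10 in monosome footprints per codon. With the 13 mitochondrial coding rows as denominator, values per 1000 codons per 1000000 counts differ by construction. They were 699088 on co1, 340374 on co2, 30041 on atp6, 372259 on co3 and 292712 on cytb in the disome libraries, and 815991 on co1, 498098 on co2, 178999 on atp8, 148804 on atp6, 549041 on co3 and 366685 on cytb in the monosome libraries. Leaving the stop codon out of the length, or leaving out monosome replicate 1, put 15 of the 15 pairs apart in monosome footprints per codon, against 14, the added pair being atp8 and atp6. Setting disome replicates beside the other monosome replicate left 0 of 15 pairs apart in the odds of a disome footprint. The odds ratio of the nd genes over the 6 genes, itself chosen after seeing the data, was 3.97 and 2.76 with this crossing, against 3.89 and 2.81. The comparison with nuclear-encoded partners was not run, since transcripts could not be paired with genes. Depth limits single-gene disome values most, with 129 disome footprints on the 6 genes over both libraries and 1 on atp6 and atp8 together.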
